A study of Menidia menidia with 24 samples.

Results

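The transcripts described here had their lowest mean in larvae never treated with hypoxia and acidification, either directly or through their parents. The rule that chose them held them level, with means within 0.3 on the log2 scale, in the 3 groups treated in either or both generations. They were 150 of the 20210 genes counted in whole larvae of the Atlantic silverside (Menidia menidia), a small coastal fish whose eggs and larvae develop in shallow water where oxygen and pH fall together at night. RNA was sequenced from 24 single wild-type larvae at 19 days post-fertilization (dpf), 6 in each of 4 groups, all of them offspring of adults caught in the wild. Each group name gives the parental treatment and then the offspring treatment, with C for control and H for combined hypoxia and acidification (HypOA). CC larvae had control parents and were reared in control seawater, at 100% dissolved oxygen and a CO2 partial pressure of 600 µatm. CH larvae had control parents and were reared under HypOA, at 35% dissolved oxygen and 2500 µatm. HC larvae were reared in control seawater and HH larvae under HypOA, both from parents held under HypOA. All were reared at 20 °C, and the levels given are those of the sample labels, from which those in the methods of the study differ. Parents met HypOA only at night during a short holding period before spawning, whereas offspring were kept under static conditions from shortly after fertilization.

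The members were chosen on the group means themselves. Counts were scaled to log2 CPM, the counts of a gene as a rate of all counted reads of the larva, with TMM factors and a prior count of 2, and 16527 genes with a mean of at least 1 CPM were kept. In 9563 of these the means of CH, HC and HH lay within 0.3 of each other. The members were the 150 genes among them with the largest minimum excess, which is the smallest of the differences CH minus CC, HC minus CC and HH minus CC, after 2 genes were left out by name. Differences between CC and the other groups are therefore what the choice was made on, and they are given below as a description with no test. This holds for the counts of differentially expressed transcripts (DETs) among the members too, and CH, HC and HH were all set against the same 6 CC larvae. The limit fell in a dense part of the ranking. The last members were CC120, ACBG1 and DRD2L with minimum excesses of 0.4559, 0.4558 and 0.4554, and the next genes, mme00988, mme14359 and mme14066, had 0.4547, 0.4518 and 0.4497. At the same limits, 156 genes had their highest mean in CC with the other groups level, 168 had their lowest mean in CH, 48 their highest in CH, 20 their lowest and 17 their highest in HC, and 37 their lowest and 44 their highest in HH.

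Parental exposure can alter offspring gene expression through what the egg and sperm carry, such as hormones, maternal RNA, mitochondria and chromatin marks, and exposure of the embryo acts on its own cells as they develop. A transcript that follows either exposure alone as it follows both has the shape of the present set. In fish larvae of this age the brain, spinal cord, retina and lateral line are still growing. Transcription factors of the bHLH, homeobox, POU, PRDM and Snail families set which progenitors divide and which neurons they become, while receptors, channels and adhesion proteins of the synapse follow as circuits form.

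Several features of the design limit what the group means stand for. The eggs and sperm of each parental group were combined in 1 fertilization, so that parental treatment and parental pool cannot be told apart. The 6 larvae of a group came from 3 rearing containers according to the methods, but the labels do not assign larvae to containers, and larvae were treated as independent. Larvae were sampled at one age, and the study's authors expected HypOA larvae to be smaller and less developed. At that age the study measured larvae reared under HypOA as shorter than those reared in control seawater. It also reported slower larval growth under HypOA and, on average, in offspring of HypOA-treated parents. The RNA came from whole homogenized larvae, in which fewer cells of a type and less RNA per cell cannot be told apart. Counted reads ranged from 11688851 to 16120500 per larva. The larva CH 3 stood apart, with 31.4% of its reads unassigned against 25.3% to 27.7% in the other larvae.

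Gene symbols could be given to 48 members. They came from the readable part of the study's table of comparisons, which holds only transcripts that differed between CH and CC, so the named members are a selected part of the set. A further 8 members stood in that part without a symbol, and 94 did not stand in it. The other 102 members are given by the identifiers of the annotation. No sequences or positions are given, because the reference table used here could not be matched to these identifiers. SSBP2, SIX3, NLGN3 and NECA1 are symbols that several genes of the annotation carry. Reads placed at several sites, a mean of 5.32% of reads, were tallied as unassigned. Reads that fit such copies alike could therefore be missing from their counts.

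CC larvae were lower than the level of the other groups by a step that the rule required in every member. The size of this step is the value that ranked and cut the set. That most values lay close above the limit was therefore built in. The minimum excess had a median of 0.53 on the log2 scale, a 1.44-fold difference, and ranged from 0.46 (1.37-fold) to 1.10 (2.14-fold). It exceeded 0.7 in 23 members and 0.5 in 101. The means of CH, HC and HH differed by a median of 0.18, with a range from 0.016 to 0.30. HC was the lowest of the exposed groups in 86 members, CH in 33 and HH in 31, and HH was the highest in 71, CH in 60 and HC in 19.

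**Figure D1:**
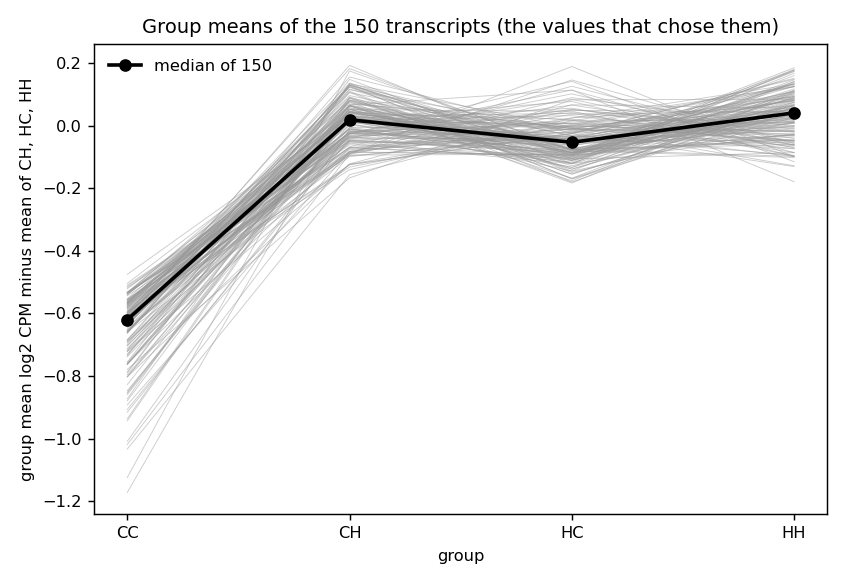
Group mean log2 CPM of each of the 150 transcripts (grey lines) minus the mean of its CH, HC and HH means, with the median over the transcripts in black. The lines drop in CC and run close to 0 in the exposed groups, which is the shape on which the transcripts were chosen.

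Single larvae showed how evenly this step ran, but the step itself was built in, since the same larvae chose the members. For each larva, the median over the 150 members of its log2 CPM minus the mean of CH, HC and HH was taken. This median was -0.79 in CC 1, -0.85 in CC 2, -0.54 in CC 3, -0.69 in CC 4, -0.38 in CC 5 and -0.48 in CC 6. In the other groups it ran from -0.02 to 0.11 in CH, from -0.13 to 0.06 in HC and from -0.07 to 0.25 in HH. The CC mean was -0.62±0.18, and those of the exposed groups were 0.03±0.05 (CH), -0.05±0.08 (HC) and 0.07±0.11 (HH, mean±s.d., n=6). The CC larvae thus spanned more of the scale than the larvae of any other group, with CC 1 and CC 2 lowest and CC 5 nearest to the exposed larvae. CC 2 was the lowest of all 24 larvae in 40 members and CC 1 in 37, against 25 for CC 4, 21 for CC 3, 13 for CC 6 and 8 for CC 5.

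**Figure D2:**
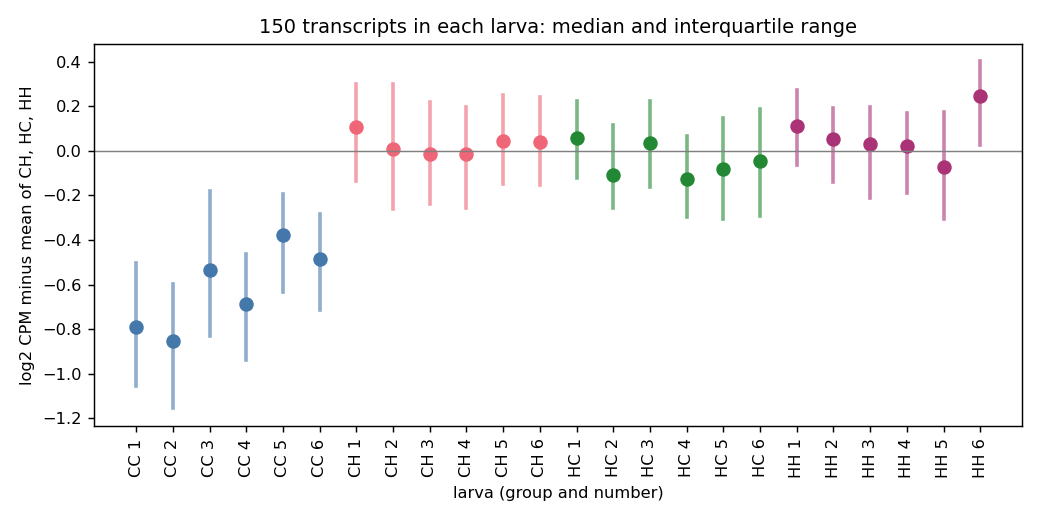
Median (points) and interquartile range (lines) over the 150 transcripts of log2 CPM minus the mean of the CH, HC and HH means, for each of the 24 larvae. The 6 CC larvae lie between -0.85 and -0.38 and the other 18 between -0.13 and 0.25. The transcripts were chosen on the group means of these larvae.

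In the edgeR quasi-likelihood fit of all 24 larvae over 17262 transcripts, in which every member was tested, 62 of the 150 members (41.3%) were DETs in CH versus CC at an FDR below 0.05, all of them higher in CH, where 4.99% of all transcripts tested were higher. In HH versus CC, 69 members (46%) were higher and none lower, beside 5.21% of all transcripts that were higher. In HC versus CC no member passed, and 0% of all transcripts did. The smallest FDR among members in that comparison was 0.128, and 121 members had an unadjusted p below 0.05 (80.7%, beside 13.2% of all transcripts). In the same comparison limma-voom called 0 members and DESeq2 called 20, and their shares over all transcripts were not computed. Nothing is read from these counts, since the same contrasts chose the members. The median fitted log2 difference from CC was 0.65 in CH, 0.58 in HC and 0.70 in HH, with a median SE of 0.24 in each, against -0.01, -0.00 and -0.02 over all transcripts tested. DETs in both CH and HH numbered 54, with 8 in CH only, 15 in HH only and 73 in neither. The difference between a call and no call was not tested in any of these. The same split over all transcripts was not counted, so no share stands beside these numbers and nothing is read from them.

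Between the exposed groups the same fit called 0 members in HC versus CH, 0 in HH versus CH and 0 in HH versus HC, where 0.29%, 0.0174% and 0.0232% of all transcripts were called. At an unadjusted p below 0.05 the counts were 0, 1 and 2, beside 15.1%, 14.4% and 8.24% of all transcripts, and DESeq2 and limma-voom called 0 in each. The rule held these means together, so low counts were built in. For the parental by offspring interaction the fit called 0 members beside 0% of all transcripts, DESeq2 called 1 and limma-voom 0. At an unadjusted p below 0.05 there were 57 members (38%) beside 10.7% of all transcripts. That count was built in too: with CH, HC and HH level, the interaction is about the excess over CC with its sign turned. Nothing is read from it. The counts changed when single larvae were left out. Calls over all transcripts were not counted in these fits, so no share stands beside the counts and nothing is read from the changes. Without CC 2, CH versus CC had 43 calls and HH versus CC had 45, and without HH 6 the latter count was 43. HC versus CC had 1 call without CC 1 and 2 without CC 5. Without CH 3, the larva with the most unassigned reads, the counts were 60 for CH, 0 for HC and 69 for HH against CC.

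Few members separated the larvae without overlap. The rule chose members for low CC means in these same larvae. Shares above those of all genes were therefore built in here, and nothing is read from them. All CC larvae lay below all CH larvae in 28 members (18.7%, beside 2.03% of all genes kept), below all HC larvae in 16 (10.7%, beside 0.539%) and below all HH larvae in 27 (18%, beside 2.84%). In 5 members (3.33%, beside 0.157%) they lay below all other 18 larvae, namely mme09801, mme12622, TSN8, MK04 and DIRA1, of which mme12622 and DIRA1 were picked out after their values were seen. In the median member 7 of the 18 exposed larvae lay at or below the highest CC larva. The lowest of the 24 larvae was a CC larva in 144 members (96%, beside 32.3%). In the remaining 6, picked out on this measure, it was CH 2 (mme10167 and mme04525), CH 3 (mme13205), CH 5 (mme05910), HC 6 (mme06789) or HH 3 (mme20111).

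Transcription factors were the most numerous members of any list used here, though this was also the longest list. Of 62 measured genes in a list of patterning and neural transcription factors, 11 were members. Of 10 retina markers 2 were members, so the order of the lists depends on their length. Beside them, 48 of the 1208 transcripts with a symbol, from which all lists were drawn, were members. All 11 transcription factors were DETs in CH, 10 in HH and 0 in HC when set against CC, with fitted log2 differences from CC of 0.57 to 1.04 in CH, 0.46 to 0.86 in HC and 0.46 to 0.96 in HH. Over the whole list of transcription factors, 62 genes were higher in CH, 0 in HC and 40 in HH, with median log2 differences of 0.66, 0.38 and 0.52. All lists used here were drawn from transcripts that differed between CH and CC, so their counts in CH are not independent evidence of a direction. HC and HH were set against the same 6 CC larvae, so their list values are not independent of that choice either. SP5 (mme07451), a zinc finger protein of the Sp/KLF family and a target of Wnt signalling in vertebrates, was from 1.24 to 3.54 CPM (median 2.41) in CC, from 2.97 to 6.19 (4.91) in CH, from 3.49 to 4.88 (4.24) in HC and from 2.75 to 6.35 (4.23) in HH. The fitted log2 differences from CC were 1.04±0.25, 0.86±0.25 and 0.94±0.25 in CH, HC and HH (±SE), and CC overlapped each of the groups by its highest larvae. SCRT1 (mme06485), a Snail-family repressor expressed in new neurons of mammals, was from 3.56 to 5.69 CPM (median 4.59) in CC, from 6.26 to 9.59 (8.596) in CH, from 5.64 to 11.9 (7.98) in HC and from 6.57 to 10.5 (8.83) in HH, and 2 HC larvae lay at or below the highest CC larva.

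OLIG3 (mme08476), a bHLH factor of dorsal hindbrain and spinal cord progenitors, ran from 2.33 to 5.25 CPM (median 4.35) in CC, from 4.15 to 9.27 (7.49) in CH, from 5.76 to 8.996 (6.04) in HC and from 4.97 to 9.63 (6.700) in HH. Its CC values were close together except for CC 2, the lowest, and the fitted log2 differences from CC were 0.76±0.21, 0.72±0.21 and 0.70±0.21. SIX3 (mme05407), a homeobox protein of the forebrain and eye, ran from 6.13 to 11.3 CPM (median 8.199) in CC, from 12.01 to 15.99 (12.6) in CH, from 10.3 to 15.4 (11.1) in HC and from 10.8 to 15.3 (12.2) in HH. All CC larvae of SIX3 were below the CH range. PRD13 (mme06781) encodes PRDM13, which directs the making of inhibitory interneurons in spinal cord and retina of mammals, and ranged from 4.38 to 12.9 CPM (median 9.87) in CC, from 12.6 to 20.5 (15.1) in CH, from 10.6 to 16.8 (11.8) in HC and from 11.2 to 14.4 (12.8) in HH. Its highest value was in CH and the other exposed groups lay nearer to CC, with fitted differences of 0.76±0.20, 0.46±0.20 and 0.46±0.20, and it was no DET in HH versus CC.

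A pair of POU class 3 genes, whose products act in neural progenitors, were members. P3F3B (mme18215) spanned from 3.91 to 7.17 CPM (median 5.44) in CC, from 8.01 to 11.8 (9.23) in CH, from 5.67 to 10.2 (8.29) in HC and from 7.56 to 11.2 (9.47) in HH. PO3F2 (mme15922), also known as Brn2, spanned from 4.03 to 7.17 CPM (median 5.76) in CC, from 6.38 to 10.9 (9.09) in CH, from 6.37 to 9.93 (7.78) in HC and from 6.597 to 9.796 (8.74) in HH. Both had their lowest values in CC and their medians in CH, HC and HH within the range of one another. DBX1B (mme00801), a homeobox gene of interneuron progenitors, had means of 3.89±1.05 CPM in CC, against 6.26±1.38 in CH, 5.51±1.08 in HC and 6.34±1.499 for HH (mean±s.d.). HMX3A (mme05485), a homeobox gene of the inner ear and lateral line, had means of 3.61±0.623 CPM in CC, against 5.403±1.04 in CH, 5.13±0.721 in HC and 6.38±1.14 for HH. NDF2 (mme15441), the neuronal bHLH factor NeuroD2, had means of 9.63±2.32 CPM in CC, against 14.6±2.17 in CH, 13.1±2.53 in HC and 14.5±1.804 for HH. In SSBP2 (mme01316), a cofactor of LIM-homeodomain complexes, they were 12.5±2.85 CPM in CC, against 18.5±3.496 in CH, 17.5±3.12 in HC and 18.1±1.84 for HH. CC was lower than the other means by more than 1 s.d. of CC in each of these genes, and single larvae overlapped in all of them. DBX1B, HMX3A, NDF2, PO3F2 and SSBP2 were outside the rule for named genes and complete the list.

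Receptors, peptides and channels also stood among the members. Their lists hold only transcripts that differed between CH and CC, not all receptors and channels measured. Of 28 listed neurotransmitter receptors and auxiliary subunits, NPY2R and DRD2L were members, and of 39 listed voltage-gated and potassium channels, KCNJ5 and KCNC2. Beside them, 48 of the 1208 transcripts with a symbol were members, and nothing is read from these counts. NPY2R (mme04219), a receptor of neuropeptide Y that lowers transmitter release, was from 0.788 to 1.01 CPM (median 0.872) in CC, from 1.33 to 2.22 (1.69) in CH, from 0.842 to 2.03 (1.64) in HC and from 0.848 to 2.14 (1.604) in HH, at about 1 CPM and thus on few reads. The CC larvae lay within a narrow band, and 1 HC larva and 1 HH larva reached into it. DRD2L (mme04792), a dopamine receptor of the D2 type, was from 2.76 to 4.47 CPM (median 3.36) in CC, from 4.69 to 7.17 (5.76) in CH, from 3.91 to 5.93 (4.77) in HC and from 5.21 to 6.93 (5.94) in HH. KCNJ5 (mme04996), a potassium channel subunit opened by G proteins, ran from 4.36 to 6.58 CPM (median 5.88) in CC, from 7.301 to 9.76 (9.06) in CH, from 6.73 to 11.5 (7.72) in HC and from 5.46 to 12.2 (9.82) in HH, with fitted log2 differences of 0.65±0.17, 0.54±0.17 and 0.73±0.17. KCNC2 (mme17146), a Kv3 potassium channel of fast-spiking neurons, ran from 2.56 to 4.300 CPM (median 4.04) in CC, from 4.68 to 7.02 (6.28) in CH, from 3.21 to 6.72 (5.497) in HC and from 4.097 to 9.17 (5.97) in HH. In KCNJ5 a single HH larva lay at or below the highest CC larva. PACA (mme13222), the neuropeptide PACAP, picked out after its values were seen, had means of 13.3±2.02 CPM in CC, against 19.7±4.78 in CH, 18.9±2.47 in HC and 23.4±5.502 for HH.

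Members at the synapse stood in the lists of vesicle release and of synaptic adhesion and scaffolds. Most genes of these lists were not members. The same held for all 1208 transcripts with a symbol, of which 48 were members. STB5L (mme08016), tomosyn-2, which limits vesicle fusion, was the only member of 34 listed genes of vesicle release. It ran from 9.73 to 18.6 CPM (median 14.01) in CC, from 16.5 to 23.02 (21.1) in CH, from 17.5 to 23.6 (20.00) in HC and from 20.5 to 26.7 (22.6) in HH. The median over those 34 genes was a fitted log2 difference from CC of 0.56 in CH, 0.36 in HC and 0.53 in HH, with 34, 0 and 25 genes higher. Of 53 genes of synaptic adhesion and scaffolds, CBLN2 and NLGN3 were members. CBLN2 (mme12043), a secreted organiser of synapses that binds neurexins, was from 9.16 to 15.7 CPM (median 13.7) in CC, from 15.4 to 24.6 (22.4) in CH, from 15.2 to 21.6 (17.8) in HC and from 16.03 to 24.8 (19.9) in HH. NLGN3 (mme04203), a neuroligin of the postsynaptic membrane, was from 2.67 to 4.68 CPM (median 3.82) in CC, from 5.02 to 7.21 (5.38) in CH, from 4.47 to 6.59 (5.296) in HC and from 3.74 to 6.23 (5.701) in HH. In both the CC median lay below the lowest CH larva, and NLGN3 was no DET in HH versus CC. Of 15 genes of neurotransmitter synthesis and transport, 0 were members. PCDC2 (mme10940), a clustered protocadherin, ran from 14.7 to 22.4 CPM (median 17.4) in CC, from 23.4 to 34.8 (26.99) in CH, from 21.4 to 28.3 (26.8) in HC and from 25.96 to 33.8 (29.9) in HH, with fitted log2 differences of 0.66±0.12, 0.57±0.12 and 0.75±0.12. Its CC larvae lay below those of CH and of HH without overlap.

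The members with a symbol whose CC larvae lay below all others were MK04, DIRA1 and TSN8, of the cell's signalling and surface proteins. Of 54 listed kinases, phosphatases and small GTPase regulators, MK04, RGRF2 and DGKB were members. MK04 (mme01511), the atypical MAP kinase ERK4, was from 6.13 to 7.88 CPM (median 6.69) in CC, from 8.69 to 14.4 (9.29) in CH, from 9.63 to 11.8 (10.7) in HC and from 9.04 to 14.7 (12.3) in HH. No larva of the exposed groups fell into the CC range, and the fitted log2 differences were 0.58±0.14, 0.63±0.14 and 0.80±0.14. DIRA1 (mme09905), a GTPase of the Di-Ras family found in brain, was from 29.6 to 40.1 CPM (median 33.04) in CC, from 45.6 to 55.3 (52.7) in CH, from 42.4 to 60.1 (44.5) in HC and from 49.8 to 73.7 (56.99) in HH, again with no overlap. TSN8 (mme17381), a tetraspanin of the cell membrane, was from 8.56 to 12.8 CPM (median 10.6) in CC, from 14.03 to 19.9 (18.2) in CH, from 13.5 to 17.2 (15.8) in HC and from 14.7 to 20.4 (16.7) in HH. The highest CC larva of TSN8 and the lowest HC larva were neighbours. RGRF2 (mme01604), a calcium-responsive exchange factor for Ras, had means of 11.5±2.21 CPM in CC, against 18.8±3.100 in CH, 18.03±2.25 in HC and 16.7±1.27 for HH. DGKB (mme06057), a neuronal diacylglycerol kinase, had means of 4.895±1.199 CPM in CC, against 7.14±1.36 in CH, 6.93±0.795 in HC and 7.49±1.39 for HH. In DGKB 8 exposed larvae lay at or below the highest CC larva. EFHD2 (mme05135), a calcium-binding protein with EF hands, ran from 16.5 to 27.1 CPM (median 17.4) in CC, from 26.9 to 36.3 (35.5) in CH, from 21.3 to 39.01 (28.3) in HC and from 21.6 to 41.4 (36.8) in HH. One CC larva, CC 5, stood above the other CC larvae, and 4 exposed larvae lay at or below it. MNAR1 (mme00706), a membrane protein that binds Notch2, ran from 3.78 to 5.78 CPM (median 4.61) in CC, from 5.76 to 9.09 (7.02) in CH, from 6.196 to 8.61 (7.601) in HC and from 5.73 to 9.095 (8.101) in HH, with 2 exposed larvae at or below the highest CC larva.

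**Figure D3:**
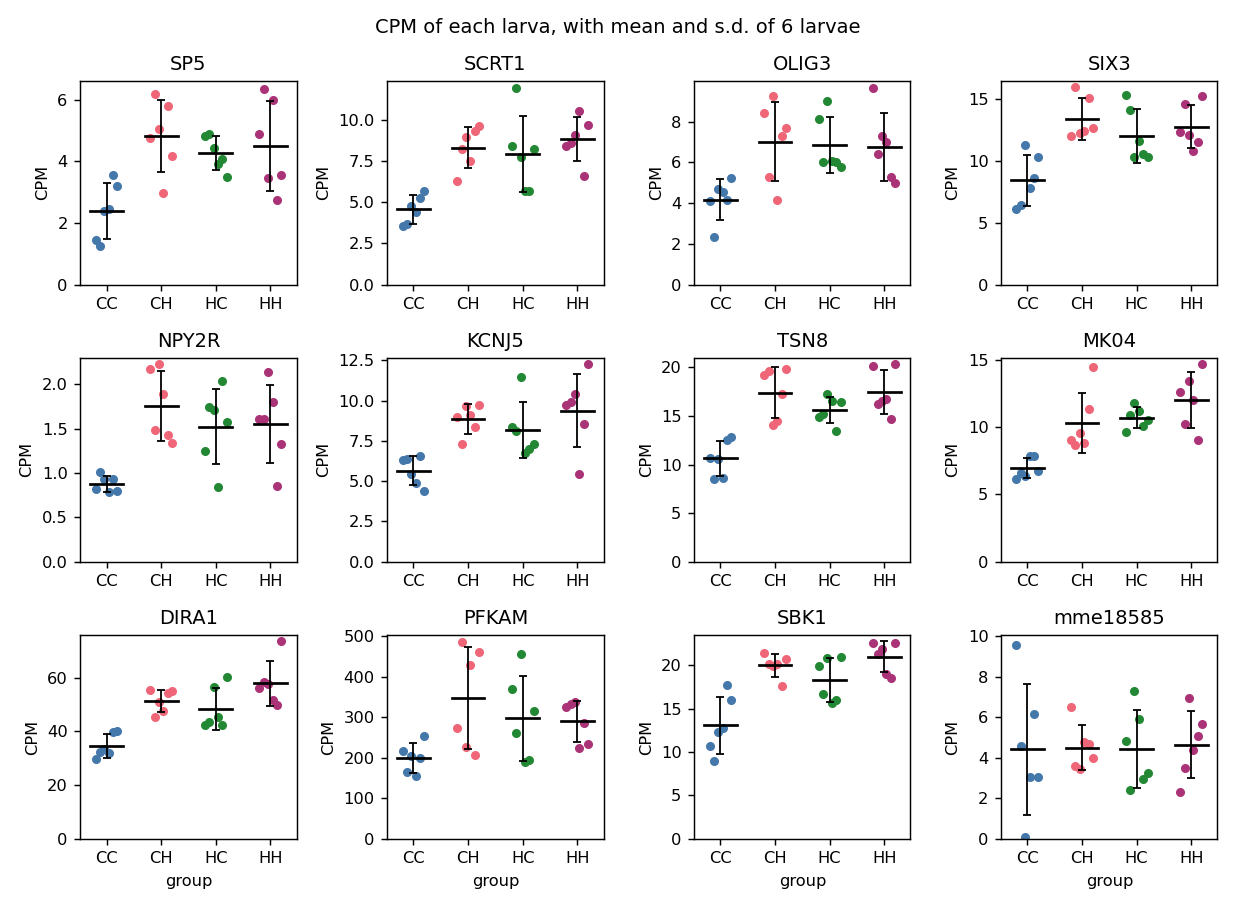
CPM of 12 members in each larva by group, with the mean and s.d. of 6 larvae in black and a separate axis from 0 for each gene. CC larvae lie below all others in TSN8, MK04 and DIRA1, overlap by a few larvae in SP5, SCRT1, OLIG3, SIX3, NPY2R, KCNJ5, PFKAM and SBK1, and span the range of all groups in mme18585, whose CC mean on the log2 scale rests on CC 3.

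The largest minimum excess of all members was that of MYO1H (mme01375), a class I myosin, at 1.10. It was from 0.0778 to 0.979 CPM (median 0.449) in CC, from 1.07 to 1.58 (1.199) in CH, from 0.776 to 1.68 (1.104) in HC and from 0.987 to 1.603 (1.17) in HH, near the limit of 1 CPM, so that it rested on a few reads per larva. The fitted log2 differences from CC were 1.29±0.32, 1.17±0.32 and 1.24±0.32. CNNM1 (mme05618), a membrane protein of the cyclin M family, was from 1.46 to 3.04 CPM (median 2.003) in CC, from 1.57 to 5.498 (4.68) in CH, from 2.79 to 4.88 (3.68) in HC and from 2.87 to 5.04 (3.88) in HH, and INY2B (mme04066) had means of 2.603±0.655 CPM in CC, against 5.31±0.895 in CH, 4.35±0.673 in HC and 5.09±1.97 for HH. In CNNM1 the lowest CH larva lay among the CC larvae. DGAT1 (mme02491), which catalyses the last step of triglyceride synthesis, was from 1.46 to 4.13 CPM (median 2.38) in CC, from 2.67 to 6.88 (4.94) in CH, from 3.02 to 9.105 (4.64) in HC and from 3.08 to 4.89 (4.15) in HH. PFKAM (mme07500), the muscle form of phosphofructokinase and thus an enzyme of glycolysis, had the highest CPM of the set and was from 155 to 254 CPM (median 202) in CC, from 207 to 485 (350.2) in CH, from 188 to 455 (288) in HC and from 223 to 338 (304) in HH. These were the members among 17 measured genes of a mixed metabolic list, which holds enzymes of glycolysis and respiration and some of other pathways. They passed in CH versus CC and not in HH versus CC, and in HH versus CH neither was a DET. C99L2 (mme17468), a CD99-like membrane protein, and CCN3 (mme06652), a matricellular protein, had 12 and 9 exposed larvae at or below the highest CC larva. Their means were 14.2±5.88 CPM in CC, against 23.5±5.67 in CH, 20.2±5.86 in HC and 23.8±3.57 for HH for C99L2 and 15.4±5.99 CPM in CC, against 25.7±7.402 in CH, 21.2±3.14 in HC and 25.1±6.303 for HH for CCN3. CHST8 (mme00579), a sulfotransferase that modifies sugar chains of pituitary hormones in mammals, ran from 3.75 to 6.49 CPM (median 5.36) in CC, from 6.44 to 9.91 (7.99) in CH, from 5.87 to 9.15 (7.88) in HC and from 7.12 to 8.33 (7.94) in HH.

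A pair of members belonged to a list of 10 retina markers. PCARE (mme09516), a protein of the photoreceptor cilium, was from 1.45 to 2.45 CPM (median 1.996) in CC, from 2.502 to 3.79 (3.41) in CH, from 1.91 to 4.03 (3.21) in HC and from 2.84 to 4.06 (3.48) in HH. GP179 (mme14553), the orphan receptor GPR179 of retinal ON-bipolar cells, was from 1.58 to 2.38 CPM (median 1.91) in CC, from 2.22 to 4.504 (3.55) in CH, from 1.91 to 4.54 (2.599) in HC and from 2.596 to 3.51 (3.13) in HH. Both were low in read count, and in PCARE 1 exposed larva lay at or below the highest CC larva. In GP179 CH 2, HC 1 and HC 4, at 2.22, 1.91 and 2.30 CPM, lay below the highest CC larva at 2.38 CPM. No member stood in the lists of RNA splicing (43 genes), chromatin (36), globins and heme synthesis (8), neuron markers (20), glia (8), blood cells (6), skeletal muscle (19), exocrine pancreas (14), connective tissue (19), cartilage (6) or immune cells (10). Nothing is read from these absences, since only 48 of the 1208 transcripts with a symbol were members.

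Among members without a symbol, the leading ones differed widely in how far single larvae bore out the group means. In mme09801 the CC larvae ran from 0.788 to 1.43 CPM (median 1.095) in CC, from 1.58 to 3.34 (1.996) in CH, from 1.99 to 2.66 (2.47) in HC and from 2.14 to 3.06 (2.699) in HH, without overlap, and the fitted log2 differences were 0.98±0.22, 1.14±0.22 and 1.26±0.22. mme12622 ran from 2.38 to 3.91 CPM (median 3.46) in CC, from 4.06 to 7.09 (4.83) in CH, from 4.74 to 6.21 (5.500) in HC and from 4.66 to 7.68 (6.01) in HH, also without overlap. By contrast mme08140, the second of the ranking, ran from 2.13 to 21.2 CPM (median 4.23) in CC, from 3.01 to 33.7 (13.7) in CH, from 2.37 to 39.4 (9.49) in HC and from 3.08 to 25.5 (10.1) in HH. Its fitted log2 differences of 1.19±0.67, 1.35±0.67 and 0.85±0.66 had wide errors and 14 exposed larvae lay at or below the highest CC larva. The member mme20111, the third of the ranking, ran from 28.5 to 132 CPM (median 37.1) in CC, from 49.2 to 223 (92.1) in CH, from 36.1 to 188 (131) in HC and from 11.7 to 258 (127) in HH, and the lowest larva of all was an HH larva. Its fitted log2 differences were 0.89±0.52, 1.09±0.52 and 1.19±0.52, and it was a DET in no comparison. mme08545 ran from 0.681 to 1.73 CPM (median 1.300) in CC, from 1.303 to 4.34 (2.56) in CH, from 1.505 to 3.32 (2.53) in HC and from 2.06 to 3.74 (2.42) in HH, with 2 exposed larvae at or below the highest CC larva. mme05072, the third of the set by CPM, ran from 21.2 to 63.96 CPM (median 41.96) in CC, from 48.3 to 74.3 (62.4) in CH, from 51.8 to 78.6 (60.5) in HC and from 43.6 to 67.2 (56.2) in HH. In mme18585 the group mean of CC rested on a single larva: CC 3 had 0.0852 CPM while the other CC larvae ran from 3.02 to 9.57 CPM. The fitted log2 differences of this gene from CC were 0.02±0.44, -0.00±0.43 and 0.07±0.43, and 18 exposed larvae lay at or below its highest CC larva. Without CC 3 its minimum excess was -0.22 in place of 0.51.

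The members were supported by fewer reads than most transcripts. Their mean CPM over 24 larvae had a median of 4.99 and a range from 1.02 to 283, against a median of 14.3 over all 16527 genes kept, and 30 members (20%) lay below 2 CPM beside 7.82% of all genes. CPM is not divided by transcript length, so this describes read support and not abundance. Members with a symbol had a median of 10.8 CPM and those without one a median of 3.70 CPM. Of the members without a symbol, 14 of 102 were DETs in CH versus CC and 25 when HH was compared with CC. Of those with a symbol all 48 were DETs in the former comparison, which the table they came from required, and 44 in the latter.

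Larvae of the same group also varied more in the members than in other transcripts, most of all in CC. The s.d. of log2 CPM over the 6 larvae had a median over the members of 0.43 in CC, against 0.34 in CH, 0.31 in HC and 0.33 for HH, beside 0.32, 0.31, 0.27 and 0.25 over all genes kept. CC had the largest s.d. of the groups in 84 members (56%), beside 35.8% of all genes. The members also had lower read counts than all genes and were chosen for low CC means, and the part of either in this spread was not tested.

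Within groups, some members moved together from larva to larva. After the group means were removed, the correlation between members over 24 larvae had a mean of 0.084, and 62.4% of pairs were above 0, while pairs of all genes had a mean of 0.00024. It was 0.152 within CC, 0.101 within HH, 0.051 within HC and 0.011 within CH. By read support it was -0.0015 in the 30 members below 2 CPM, 0.082 in the 74 members from 2 to 8 CPM and 0.224 in the 46 members of 8 CPM or more, beside 0.013, 0.0078 and 0.0022 over all genes in the same ranges. Members with a symbol had a mean of 0.199 and those without one 0.047. These correlations are a description, since all genes of a larva share its library and its scaling. The correlation of a member with the mean of the other 149 ran from -0.63 to 0.83 with a median of 0.30, above 0.5 in 37 members and below 0 in 24. It was highest in SBK1 (mme16658), a kinase of brain, in NECA1 (mme07523), a neuronal calcium-binding protein, and in CBLN2, at 0.83, 0.81 and 0.77. SBK1 ran from 8.95 to 17.7 CPM (median 12.5) in CC, from 17.6 to 21.4 (20.2) in CH, from 15.6 to 20.9 (18.3) in HC and from 18.5 to 22.6 (21.6) in HH, and NECA1 ran from 17.2 to 26.5 CPM (median 21.8) in CC, from 31.2 to 37.7 (33.95) in CH, from 26.98 to 37.5 (28.6) in HC and from 26.3 to 37.1 (32.5) in HH. It was lowest in mme06988, mme01155 and mme07819, at -0.63, -0.39 and -0.37, which were at means of 1.08, 1.54, 1.38 and 1.89 CPM in CC, CH, HC and HH, at means of 0.797, 1.16, 1.098 and 1.27 CPM in CC, CH, HC and HH and at means of 4.897, 7.26, 5.85 and 5.58 CPM in CC, CH, HC and HH.

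**Figure D4:**
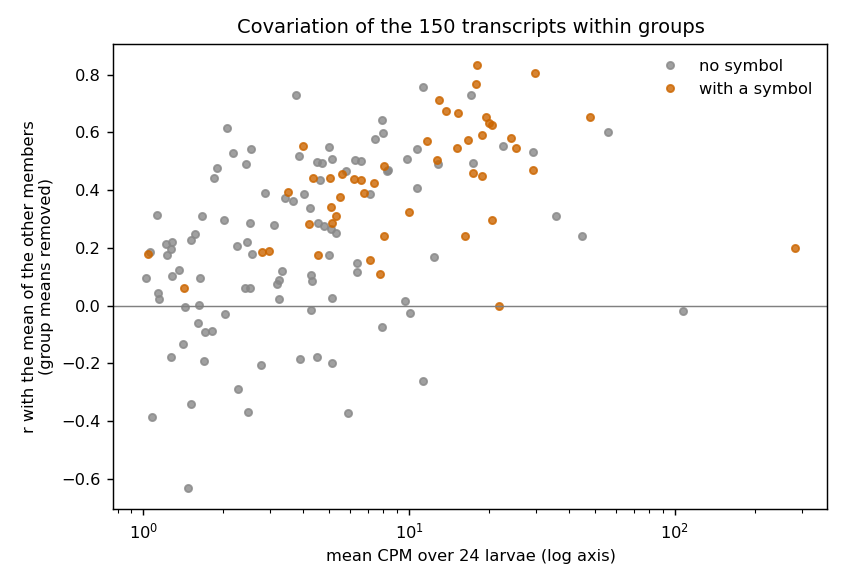
Correlation of each of the 150 transcripts with the mean of the others over 24 larvae, group means removed, against mean CPM on a log axis, for transcripts with and without a symbol. Values spread around 0 at low CPM and lie mostly above 0.2 beyond 8 CPM, with a range from -0.63 to 0.83.

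Markers of the nervous system and of connective tissue moved with the members among larvae of one group. A list of neuron markers measured as 20 genes, none of them a member and none at 0, summed to 873 to 1253 CPM in CC, 1439 to 1708 in CH, 1163 to 1442 in HC and 1373 to 1792 in HH. Against CC, 20 of them were higher in CH, on which the list was drawn, and 19 in HH, with 0 called in HC. The CC larvae lowest in the members, CC 1 and CC 2, had the lowest sums, 873 and 876 CPM, and CC 5 and CC 6, highest of the CC larvae, had 1253 and 1175 CPM. With the group means removed, the median of the members in a larva and the log2 of this sum had a Pearson r of 0.897 and a Spearman rho of 0.87 over 24 larvae. Without the 2 larvae farthest from the median r was 0.832, within the 6 CC larvae it was 0.939, and within the 18 exposed larvae it was 0.841. Glia markers (8 genes) gave an r of 0.818, and the 8 retina markers that were not members 0.814.

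Connective tissue markers (19 genes, collagens and other matrix proteins) went the other way. They summed to 4371 to 11020 CPM in CC, 2903 to 4465 in CH, 3772 to 5931 in HC and 2394 to 4782 in HH, and the 3 CC larvae with the highest sums, CC 1, CC 2 and CC 4 at 11020, 10490 and 8945 CPM, were the 3 lowest in the members. The r with the members was -0.822 over 24 larvae (rho -0.861), -0.802 without the 2 farthest, -0.898 within CC and -0.715 within the exposed larvae. Immune cell markers (10 genes) gave -0.635, cartilage markers (6 genes) -0.486, exocrine pancreas markers (14 genes) -0.299, blood cell markers (6 genes) 0.144 and skeletal muscle markers (19 genes) -0.021. None of the lists held a gene at 0 in all larvae. These 9 relations have no p-value and share library and scaling, and the part of these tissues in the differences between groups was not tested.

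**Figure D5:**
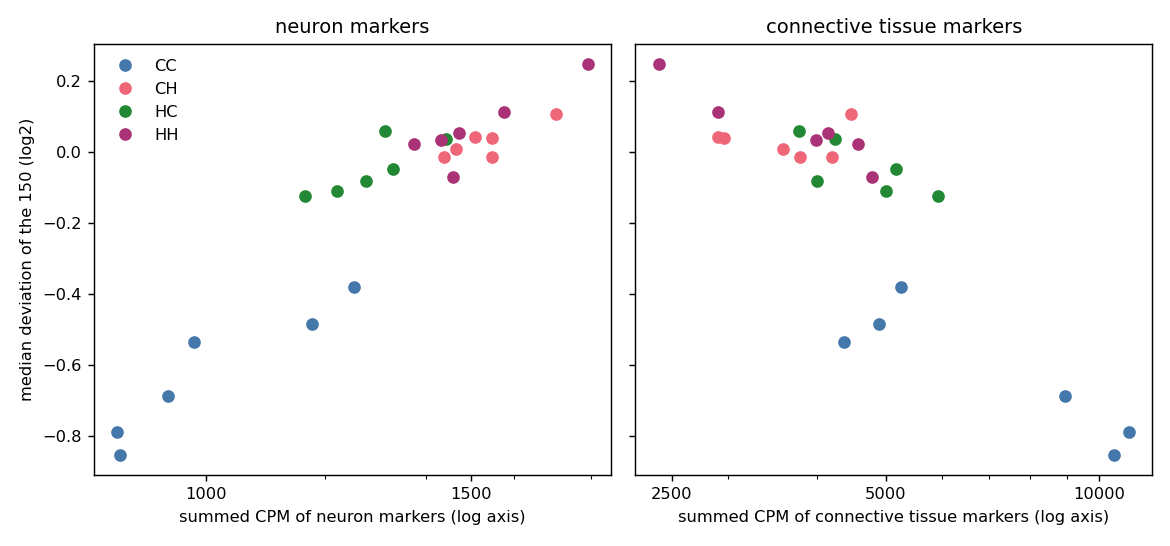
Median deviation of the 150 transcripts in each larva (log2, from the mean of CH, HC and HH) against the summed CPM of 20 neuron marker genes (left) and 19 connective tissue marker genes (right), both on log axes. Points rise along the neuron axis and fall along the connective tissue axis, within CC as well as among the other larvae.

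Between groups, the sums of these lists did not all have the shape of the members. The mean log2 sum of the neuron markers was above CC by 0.61 in CH, 0.36 in HC and 0.59 in HH, and that of the glia markers by 0.58, 0.39 and 0.65. Retina markers lay above CC by 0.67, 0.39 and 0.32, and connective tissue markers differed from CC by -0.96, -0.59 and -0.92. Exocrine pancreas markers differed by -2.53 in CH, -1.03 in HC and -2.67 in HH, skeletal muscle markers by -1.10, -0.40 and -0.73, and blood cell markers by 1.66, 0.19 and 1.45. The exocrine pancreas differences rested partly on CC 1, with a sum of 1584 CPM. The other CC larvae had 32.28 to 210 CPM, and HC larvae had 31.59 to 198.3 CPM. Immune cell markers differed by -0.96, -0.24 and -0.58, and cartilage markers by 0.16, -0.21 and 0.00. HC lay nearer to CC than CH and HH did in 7 of the 9 lists. The exceptions were retina, where HH was nearest, and cartilage, where HC was farthest. The lists hold only transcripts that differed between CH and CC, so a larger distance in CH than in HC was favoured by the choice of lists. The members have HC at the level of CH and HH because they too were chosen so. Technical measures also moved with the members: with the group means removed, r was -0.368 for counted reads, -0.224 for the TMM factor, 0.393 for the share of the top 10 genes and 0.249 for the share of unassigned reads, the last 0.733 without CH 3. The share of unassigned reads also differed between groups. It was 25.39% to 26.45% in CC, 26.65% to 31.42% in CH, 25.28% to 26.96% in HC and 26.5% to 27.71% in HH. CC thus lay below CH and HH and overlapped HC. The part of these measures in the spread among larvae and in the differences between groups was not tested.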

How the data were processed

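Whole larvae were sequenced singly from directional paired-end libraries. The authors trimmed the reads (the methods and the submitters' processing notes name different tools), aligned them with STAR 2.6.1d, counted them with HTSeq 0.11.1 and deposited raw counts per transcript entry for each larva, without normalization. How the counting treated strand and overlapping features, and the name of the genome build, were not given in the sources used here. A mean of 73.3% of reads were counted, and unassigned reads stayed out of library sizes and tests. The median library held 12722156.5 counted reads.

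Groups were taken from the labels. The 20651 entries were summed to 20210 genes. All larvae entered 1 edgeR quasi-likelihood fit (edgeR 4.0.16 in its legacy form, limma 3.58.1, DESeq2 1.42.0, R 4.3.3; the authors used edgeR 3.40.2) with a coefficient per group, TMM factors and filterByExpr (minimum count 10, minimum total 15), which left 17262 transcripts, and 7 contrasts were tested with a Benjamini-Hochberg FDR limit of 0.05. P-values measure the spread between larvae, each of which, according to the methods, shared its container with another larva of its group. The code was tested on simulated counts.

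The members and lists were chosen with earlier results of these data known. Named genes were the 20 members with the largest minimum excess, the 25 with a symbol, up to 4 per list, the 3 ranked last and next, the 3 of highest CPM, those of highest and lowest correlation and of largest and smallest overlap. They include members that the report does not describe one by one, and genes outside this rule are marked as such or complete a list. Results were recomputed with limma-voom, DESeq2, RLE factors, no filter, the newer quasi-likelihood form, a replicate block, each larva left out, and other settings of the rule.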

Additional observations from a re-analysis of the deposited data

Results flagged for a closer look

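In 9 of the 220 groups of 6 larvae tested, which were the 4 groups for each of the 54 named members and for the median over all members, a single larva lay farther from the rest than Dixon's limit for 6 values allows, where chance gives about 11. The gap is given as a share of the group's range, and values are log2 CPM. In mme08140 the larva CC 3 stood at 4.42 above 1.19 to 2.38 in the other CC larvae (gap 0.63). In mme03460 HC 6 was at 0.365 below 1.10 to 1.26 (0.825). In CNNM1 CH 2 was at 0.786 below 2.03 to 2.50 (0.724). In OLIG3 CC 2 was at 1.32 below 2.08 to 2.43 (0.687). In EFHD2 CC 5 was at 4.77 above 4.05 to 4.29 (0.672), and CH 5 was at 4.76 below 5.12 to 5.19 (0.83). In mme18585 CC 3 was at -2.07 below 1.67 to 3.28 (0.698). In SBK1 CH 5 was at 4.15 below 4.33 to 4.43 (0.647). In CC120 HH 6 was at 4.64 above 4.14 to 4.31 (0.66).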

How the results depend on the processing

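Under limma-voom, RLE factors, no filter and the newer quasi-likelihood form, 58 to 67 members were called in CH versus CC and 65 to 76 in HH versus CC, with fewer in the former each time. DESeq2 called 84 and 83, which turned that order, and it called 20 members in HC versus CC and 1 in the interaction, where edgeR called 0. Calls over all transcripts were not counted under these alternatives, so no share stands beside these counts. Nothing is read from the counts or from their order, since the same contrasts chose the members. The choice of members depended on the settings of the rule: 74 of the 150 remained with a minimum mean of 5 CPM, 70 with group medians in place of means and 87 with a tolerance of 0.2, against 103 with a tolerance of 0.5, 138 with a prior count of 0.25 and 150 with RLE factors. The cause was not tested. Leaving out each larva in turn gave 43 to 78 calls in CH versus CC, 0 to 2 in HC versus CC, 43 to 77 in HH versus CC and 0 in the other contrasts. Calls over all transcripts were not counted in these fits either. When the members were chosen again with each larva left out, 109 (without CC 3) to 138 remained, and the median minimum excess was 0.51 to 0.57. The correlation between members was 0.069 to 0.090 and the s.d. within groups 0.376 to 0.395. Of 1404 values of named genes under alternatives, 1403 stayed above 0 and shifted by less than the gene's s.d. within groups. The remaining 1 reversed: the minimum excess of mme18585 was -0.22 without CC 3 and at most 0.85 without any other larva. Leaving out a single larva can hardly shift a group mean by that s.d., and the members were chosen on this excess. The count is therefore a description and no check of the excess.

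The replicate number did not pair larvae across groups: same-numbered larvae of different groups had a mean correlation of -0.015 over 36 pairs and differently numbered larvae 0.003 over 180. Pairs within a group were not compared, so these values cannot show whether the number marks a container. With the number as a replicate block, 58 members were called in CH versus CC, 66 in HH versus CC and 0 in each other contrast, and the correlation between members was 0.076. Calls over all transcripts were not counted in this fit. Precision is limited by depth in the 30 members below 2 CPM.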
